A study of Mus musculus with 4 samples.

Results

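miR-221 and miR-222 are a pair of miRNAs made from neighbouring hairpins of the X chromosome, and each hairpin can give a strand from its 5′ side (5p) and one from its 3′ side (3p). The members described here are the 4 rows of the mature miRNA table that carry these names, out of 1915 rows in all, and they were taken by name. They were measured by small RNA sequencing of MIN6 cells, a mouse insulinoma line of pancreatic beta cells, and of exosomes isolated by ultracentrifugation from the medium of these cells. Each group held 2 libraries, and both groups came from untreated cultures grown with exosome-depleted fetal bovine serum. The exosomes were collected from pooled flasks, and the labels do not say whether the libraries of a group came from separate cultures, so p-values measure only the spread between these libraries.

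miRNAs guide Argonaute proteins to messenger RNAs that pair with the seed, the bases near the 5′ end of the miRNA. The 3p strands of miR-221 and miR-222 have the same seed and are textbook repressors of Cdkn1b and Cdkn1c, inhibitors of cyclin-dependent kinases that hold cells out of the division cycle, and of the receptor kinase Kit. They are raised in many tumours and are abundant in endothelial cells. The 5p strands are usually degraded after the 3p strand has been loaded.

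The mature sequences deposited with the hairpins are shown first, because the shared seed is what joins the pair. The capitals mark the seed, bases 2 to 8.
miR-221-3p: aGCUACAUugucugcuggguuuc
miR-222-3p: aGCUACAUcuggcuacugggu
miR-221-5p: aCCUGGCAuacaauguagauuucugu
miR-222-5p: uCAGUAGCcaguguagauccu
The 3p strands are identical over their first 8 bases and differ from base 9 onwards, so a read of full length can be told apart. The 5p strands share a seed neither with each other nor with the 3p strands. RefSeq (GRCm38.p6) lists 3 of the 4 members. It gives the same sequence for both strands of miR-221, whereas its miR-222-3p has 23 bases against 21 in the deposited files, with a longer 3′ end and the same seed.
RefSeq miR-222-3p: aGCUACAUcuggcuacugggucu
Among all mature miRNAs for which the files give a sequence, 1 other has the seed of the 3p strands, miR-1928, which is listed at 0 counts in all 4 libraries. None of the 4 mature sequences was found in a transcript of another gene among 141767 GENCODE vM21 transcripts.

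The hairpins are shown because both arms of each were counted, and the capitals mark the 5p and then the 3p arm as the files define them.
mir-222: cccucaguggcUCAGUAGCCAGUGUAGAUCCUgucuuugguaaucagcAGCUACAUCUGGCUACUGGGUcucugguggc
mir-221: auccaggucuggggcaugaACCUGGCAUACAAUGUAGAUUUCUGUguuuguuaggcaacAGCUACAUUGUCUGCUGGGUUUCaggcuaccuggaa
On GRCm38, Mir222 lies at chrX:19146893-19146971 and Mir221 at chrX:19146294-19146388, both on the minus strand, so that Mir222 comes first in the direction of transcription. The hairpins are separated by 504 bases and together span 678. No other gene of GENCODE vM21 overlaps this span, so the annotation places the hairpins in no host gene, exon or UTR. The nearest gene on the side of Mir222 is Gm14636, a processed transcript of the same strand, 10009 bases away. On the other side it is the processed pseudogene Gm5383, at 203065 bases.

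**Figure D1:**
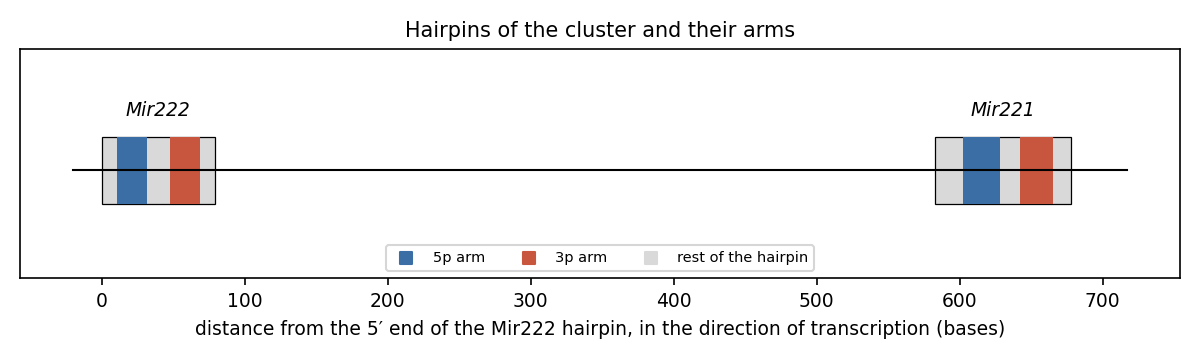
Map of the cluster to scale, with the distance in bases from the 5′ end of the Mir222 hairpin on the x axis and the arms coloured. Mir222 precedes Mir221, with 504 bases between the hairpins.

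The site of the shared seed in its best known targets is shown for context, since no messenger RNA was measured in this series. The letters searched were ATGTAGC, the complement of the seed, and ATGTAGCA, which contains them and adds the A opposite base 1, both on the transcribed strand only. The 3′ UTR of Cdkn1b holds the longer motif once, and so does that of Cdkn1c. The stretches of 20 bases printed below, which contain it, lie at chr6:134924420-134924439 (plus strand) and chr7:143458924-143458943 (minus strand) of GRCm38. The capitals mark the motif.
Cdkn1b: aaaagcattggATGTAGCAt
Cdkn1c: acctttcgttcATGTAGCAg
Neither motif occurs in the longest 3′ UTR of Cdkn1a, the related inhibitor, which is a statement about these letters only. Of the longest 3′ UTRs of 21022 genes, 9.46% held ATGTAGC and 3.50% held ATGTAGCA. Among UTRs within 10% of the length of Cdkn1b's (3439 bases), 9.83% held the longer motif, and among those as near to Cdkn1c's (688 bases) 1.19% did.

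Depth bears on every value that follows. The mature counts of cell replicates 1 and 2 came to 2930217 and 2564068 in total, and those of exosome replicates 1 and 2 to 47447 and 31409. A count of 3, taken as the limit that a count of 0 allows, corresponds to 1.02 and 1.17 RPM, the count scaled to a library total of 1000000 mature counts, in the cells and to 63.2 and 95.5 RPM in the exosomes. Intervals and limits cover counting error only. The exosome libraries were also less alike than the cell libraries. The median difference between replicates on the scale of log2 normalized CPM (the count scaled to 1000000, with the TMM correction explained where it is tested) was 1.30 in the exosomes and 0.22 in the cells.

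The 3p strands carried nearly all reads of the cluster. mmu-miR-222-3p, the more abundant strand in MIN6 cells, was counted 190 times in cell replicate 1, 147 times in cell replicate 2, 5 times in exosome replicate 1 and 2 times in exosome replicate 2. This was 64.8 and 57.3 RPM in the cells and 105 and 63.7 RPM in the exosomes. In RPM the groups overlapped, since exosome replicate 2 lay between the cell libraries. The 95% Wilson intervals of the exosome values, 45.0 to 247 and 17.5 to 232 RPM, included both cell values. miR-222-3p ranked 188 of 905 and 190 of 873 detected miRNAs in the cells and 263 of 538 and 241 of 437 in the exosomes.

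mmu-miR-221-3p was counted 81 and 65 times in cell replicates 1 and 2, against 15 and 2 times in exosome replicates 1 and 2. This was 27.6 and 25.4 RPM in the cells and 316 and 63.7 RPM in the exosomes. Both exosome libraries were above both cell libraries, and exosome replicate 1 was far above all others. The 95% Wilson interval was 192 to 522 RPM in exosome replicate 1 and 17.5 to 232 RPM in replicate 2, so the second included the values of both cell libraries. miR-221-3p ranked 251 in both cell libraries, 164 in exosome replicate 1 and 241 in exosome replicate 2, where it was tied with miR-222-3p at 2 counts.

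The 5p strands were at the edge of detection. mmu-miR-221-5p had 1 and 3 counts and mmu-miR-222-5p had 1 and 4 counts in the cell libraries, and neither had a count in the exosomes, which allows up to 63.2 and 95.5 RPM there. In the cells this was 0.756 RPM ± 0.586 (SD, n = 2) for miR-221-5p and 0.951 RPM ± 0.862 (SD, n = 2) for miR-222-5p. At these levels 0.0359 and 0.0237 reads of miR-221-5p and 0.0451 and 0.0299 reads of miR-222-5p would fall in the exosome libraries, so a difference was not detectable at this depth. Neither passed the filter on low counts, and no fold is given for either.

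**Figure D2:**
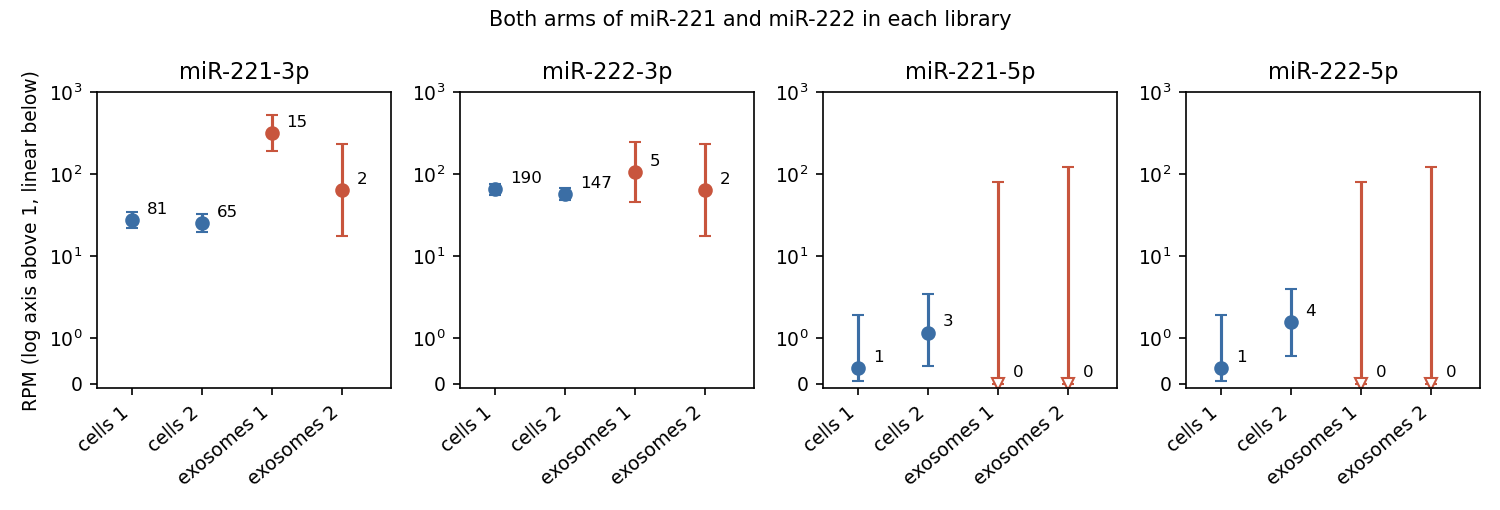
RPM of each strand in each library, with a log axis above 1 and a linear one below, 95% Wilson intervals as bars and the read count printed beside each point. The 3p strands had 65 to 190 counts in the cells and 2 to 15 in the exosomes, and the 5p strands, with open triangles for 0, had at most 4.

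Summed over the 4 members, the cluster made up 0.00932% and 0.00854% of each cell library and 0.0422% and 0.0127% of each exosome library, out of all mature counts. The intervals of exosome replicate 1 (0.0273 to 0.0651%) lay above those of both cell libraries (0.00828 to 0.0105% and 0.00748 to 0.00975%), and that of exosome replicate 2 (0.00495 to 0.0327%) included them. The difference of 0.0185 percentage points between the group means was smaller than the spread of the exosome libraries (SD 0.0208, n = 2). The two-sided exact permutation test gave p = 0.33, the smallest p that 2 libraries against 2 allow.

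To ask whether the exosomes carried more or less of each strand than the cells that released them, counts were compared with edgeR's quasi-likelihood test after TMM normalization, with Benjamini-Hochberg adjustment over the 438 miRNAs that passed the filter. TMM scales each library by the bulk of its miRNAs and gives values in normalized CPM. Of the members, 2 of 4 were tested, and neither passed an adjusted p of 0.05. Among all tested miRNAs, 53.2% passed, 23.7% as higher and 29.5% as lower in exosomes. Without cell replicate 1 or cell replicate 2 the quasi-likelihood test called 0 miRNAs, with 159 and 143 at an unadjusted p under 0.05, so each call of the full fit was lost there.

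miR-221-3p was at 41.9 and 41.4 normalized CPM in the cells and at 177 and 46.6 in the exosomes. Both exosome libraries were above both cell libraries, replicate 2 by little. The log2 fold change of exosomes over cells was 1.56, with a standard error of 0.61 and an adjusted p of 0.0899 by the edgeR test, and a 95% interval of -0.09 to 3.21. At the cell level in normalized CPM, 3.53 and 1.79 reads would be expected in the exosome libraries, where 15 and 2 were counted. At the cell RPM, 1.26 and 0.832 reads of miR-221-3p would be expected. The estimate rests mostly on exosome replicate 1. Without exosome replicate 2 the log2 fold change was 2.13 and passed (adjusted p = 0.00520 from the quasi-likelihood test), whereas without exosome replicate 1 the fitted value was 0.11, and no fold can then be given because the 2 counts of replicate 2 are under the limit of 3. By the threshold of the study's methods, edgeR's exactTest with at least a 2-fold change and an unadjusted p under 0.05, miR-221-3p was higher in exosomes (3.00-fold, unadjusted p = 0.0174 from edgeR). By that rule 27.6% of the tested miRNAs were higher and 39.5% were lower. The filter and the TMM scaling were those used here, so the call of miR-221-3p is not the study's own.

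miR-222-3p was at 98.4 and 93.7 normalized CPM in the cells and at 59.0 and 46.6 in the exosomes. By this scale the exosome libraries were the lower pair, without overlap, unlike in RPM. Its log2 fold change came to -0.82, with a standard error of 0.41 and an adjusted p of 0.156 by the edgeR test, and a 95% interval of -1.94 to 0.29. At the cell level in normalized CPM, 8.14 and 4.12 reads would be expected in the exosome libraries, where 5 and 2 were counted. At the cell RPM, 2.90 and 1.92 reads of miR-222-3p would be expected. The exactTest did not call it (unadjusted p = 0.216 from edgeR). Groups that do not overlap were common, in 85.2% of tested miRNAs by normalized CPM and in 75.1% by RPM.

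The sign of miR-222-3p and the call of miR-221-3p changed with the scaling. TMM put the median of the 438 log2 fold changes at -0.75, scaling by library size alone put it at 0.61, and upper quartile scaling at -0.07. miR-222-3p moved with it, to 0.53 under the former and -0.14 under the latter, and fell by 0.08 from the median under each of the 3. miR-221-3p was at 2.94 and at 2.23 respectively, and passed under both (adjusted p = 0.0336 and 0.0275 from the quasi-likelihood test). Over all alternatives the adjusted p of miR-221-3p from edgeR or DESeq2 ranged from 0.00520 to 0.931. It lay 2.31, 2.33 and 2.30 above the median under TMM, library size and upper quartile. Calls over all tested miRNAs were 104 higher and 129 lower by TMM (44.6% of calls higher), 137 and 30 by library size (82% higher), and 129 and 95 by upper quartile (57.6% higher). Thus miR-222-3p sat near the middle of all tested miRNAs, 51.1% of which had a higher log2 fold change, and for miR-221-3p this share was 30.4%.

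**Figure D3:**
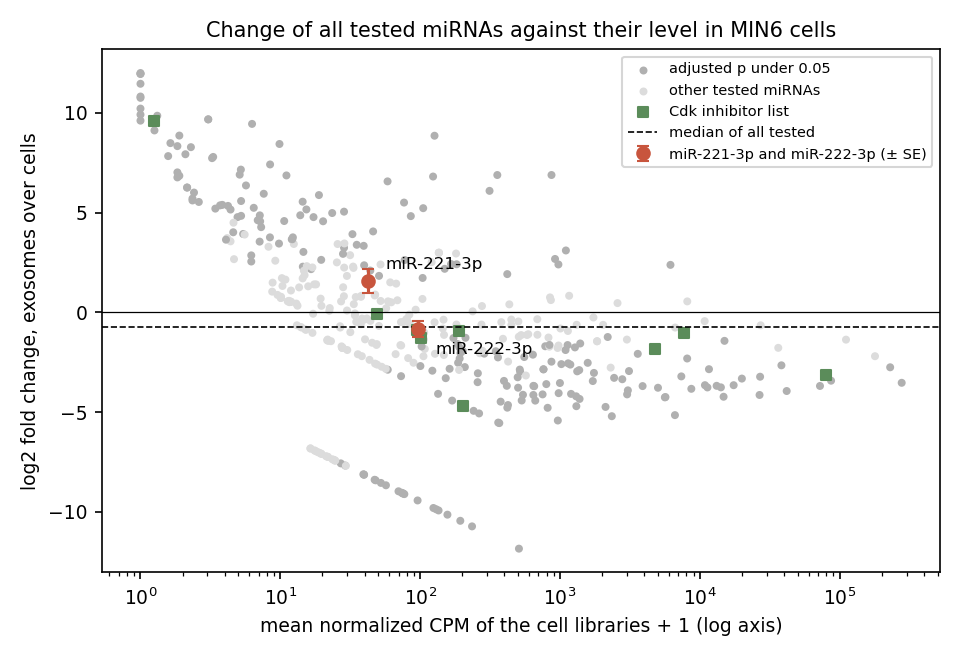
log2 fold change of each of the 438 tested miRNAs against its mean normalized CPM in the cell libraries plus 1 (log axis). miR-221-3p (1.56) and miR-222-3p (-0.82) are shown with their standard errors, green squares are the Cdk inhibitor list, and the dashed line is the median of all tested (-0.75).

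**Figure D4:**
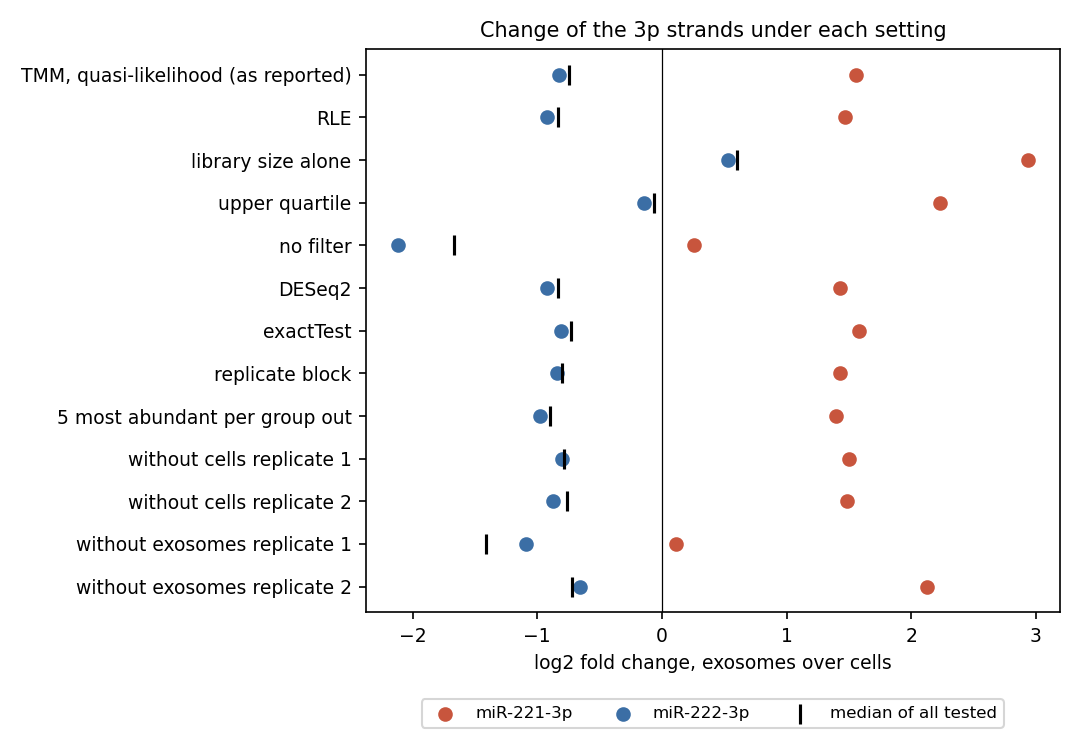
log2 fold change of miR-221-3p and miR-222-3p under each setting in which both were tested, with the median of all tested miRNAs as a vertical tick. miR-222-3p stays close to the median under most settings, and miR-221-3p falls to 0.26 when no filter is applied and to 0.11 without exosome replicate 1. The median falls too, to -1.67 and -1.41, and miR-221-3p lies 1.93 and 1.52 above it.

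The ratio between the 3p strands needs no scaling between libraries. miR-221-3p took 81 of 271 and 65 of 212 of the reads on the pair in the cells, which is 29.9% (95% Wilson interval 24.8 to 35.6) and 30.7% (24.8 to 37.2). In the exosomes it took 15 of 20, or 75.0% (53.1 to 88.8), and 2 of 4, or 50.0% (15.0 to 85.0). The cell libraries were nearly equal, both exosome libraries were above them, and the interval of exosome replicate 2 included the cell values. The cell mean of 30.3% ± 0.545 (SD, n = 2) was below the exosome mean of 62.5% ± 17.7 (SD, n = 2; two-sided exact permutation test, p = 0.33, the smallest p possible).

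The difference in fold change between the 3p strands was 2.38 on the log2 scale. It was tested with diffSpliceDGE of edgeR, which asks whether a miRNA changed differently from the rest of its miRBase family, over 313 miRNAs of families with at least 2 tested members. This test was chosen after seeing the data. It did not pass for miR-221-3p (adjusted p = 0.244 from edgeR) or for miR-222-3p (adjusted p = 0.334 from edgeR), and 15% of the 313 passed.

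The share of the 3p strand among the reads of both arms was 98.8% and 95.6% for miR-221 and 99.5% and 97.4% for miR-222 in the cells. In the exosomes all 15 and 2 reads of miR-221 and all 5 and 2 reads of miR-222 were of the 3p strand. The lower ends of the intervals, 79.6% and 34.2% for miR-221 and 56.6% and 34.2% for miR-222, show how little these few reads fix the share. With 2 libraries against 2, the exact permutation test gave its smallest p of 0.33 for both. Reads of the hairpins on neither arm were 2 of 193 for mir-222 in cell replicate 1 and 0 in every other case.

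**Figure D5:**
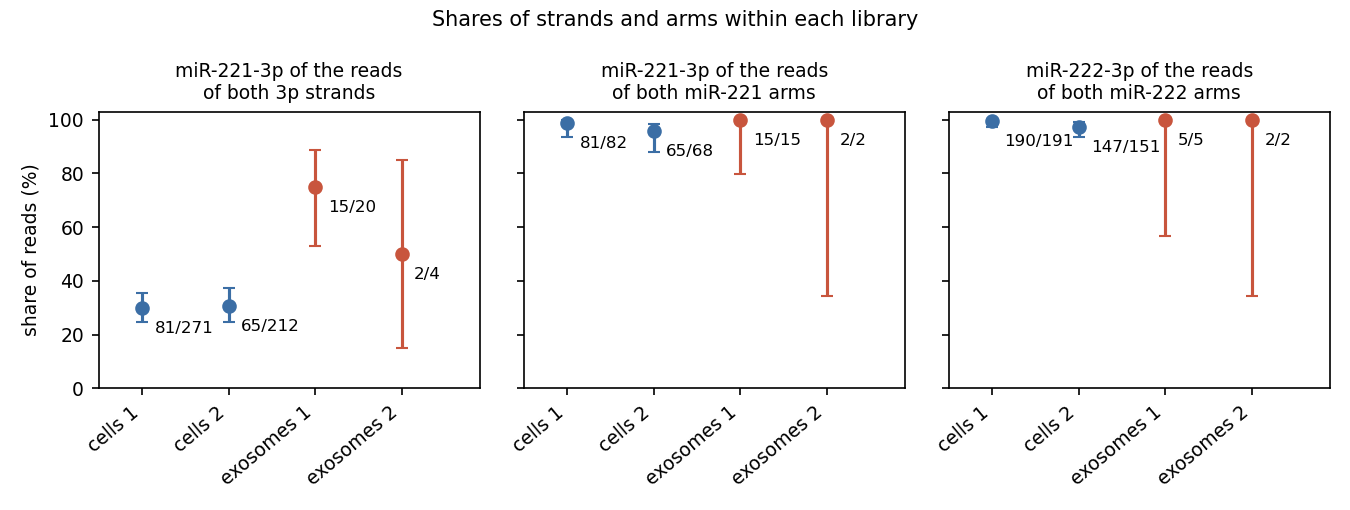
Percent of reads taken by miR-221-3p among both 3p strands and by the 3p strand among both arms of each hairpin, per library, with 95% Wilson intervals and the reads behind each point. miR-221-3p took 29.9% and 30.7% of the 3p pair in cells and 75.0% and 50.0% in exosomes.

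The miRNAs with a profile nearest to each 3p strand were sought by the Euclidean distance of log2 normalized CPM over the 4 libraries, each miRNA centred on its own mean. miR-871-5p was nearest to miR-221-3p (distance 0.51 on the log2 scale), with 65 and 38 counts in cells and 12 and 2 in exosomes. It was followed by the neuronal miR-124-3p, with 1618 and 1342 against 163 and 39 counts, then by miR-379-3p, miR-7688-5p and miR-138-2-3p, which had 5 or fewer counts in each exosome library. The nearest to miR-222-3p was miR-184-3p (distance 0.18), a miRNA known from islets, with 14086 and 9421 counts in cells and 381 and 144 in exosomes. After it came miR-1981-5p, miR-383-5p, miR-151-3p and let-7k. All 10 lay within 1.02 of their member, and the 3p strands lay 2.23 apart. None of the 10 passed an adjusted p of 0.05, where 53.2% of all tested miRNAs did. They were picked from the same values for closeness to strands that did not pass, so no conclusion is drawn from this.

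Other miRNAs known as repressors of Cdk inhibitors of the same family were read beside the members. Of 13 on the list, 12 had a count and 9 were tested, of which 1 was higher, 2 were lower and 6 did not pass, where 23.7% of all tested miRNAs were higher and 29.5% lower. Their median log2 fold change was -1.04 (-0.95 with miRNAs at 3 or fewer counts in a group placed at their bound), against -0.75 (0 with bounds) for all tested. miR-25-3p, a repressor of Cdkn1c and the most abundant of the list in cells, had 138198 and 136649 counts in cells and 1162 and 188 in exosomes and was lower (log2 fold change -3.13, edgeR adjusted p = 0.0344). miR-148a-3p, with 394 and 309 against 1 and 0 counts, was lower, at a ratio of summed normalized counts of 0.0390 (95% exact Poisson interval 0.000986 to 0.218, counting error only). miR-17-5p, a repressor of Cdkn1a, had 1 and 0 against 36 and 9 counts and was higher, at a ratio of 1233 whose interval of 210 to 49778 shows how little 1 count fixes it. This miRNA passed the filter on low counts only through the exosome libraries and could not be called lower. miR-24-3p, second in cells, had 15191 and 11866 against 168 and 239 counts and did not pass (log2 fold change -1.04). The lower calls of this list became 1 with library size alone, and 5 without exosome replicate 2 and 6 without exosome replicate 1.

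A further 144 mature miRNAs come only from hairpins of the X chromosome by RefSeq. Of these 84 had a count and 44 were tested, with 7 higher, 12 lower and a median log2 fold change of -0.33 (0 with bounds), beside 23.7% higher, 29.5% lower and a median of -0.75 (0 with bounds) over all tested. The most abundant in cells were miR-98-5p, a let-7 relative, with 51263 and 42126 counts in cells and 195 and 30 in exosomes (lower, log2 fold change -4.14), and miR-2137, with 19430 and 18145 against 323 and 523 (log2 fold change -0.44, not passing). The largest fitted increases among the calls were those of miR-351-5p, with no count in cells and 14 and 7 in exosomes, and of miR-19b-2-5p, with none in cells and 4 and 11. With the cells set at the level of 3 counts they were 94.7-fold and 87.5-fold higher, counting error of the exosome reads left aside. Most of the 7 higher calls, these among them, passed the filter on low counts only through the exosome libraries and could not be called lower. The largest fitted decreases were those of miR-325-5p, with 345 and 324 counts in cells, at least 3.66-fold lower, and of let-7f-2-3p, with 72 and 63, for which the depth allows no fold. Neither had a count in exosomes. The higher calls of this list were 14 without exosome replicate 2.

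miRNAs known as markers of beta cells and of other cell types were read in the same fit, in which 23.7% of all tested miRNAs were higher and 29.5% lower in exosomes. The 8 beta cell markers summed to 57366 and 57338 RPM in cells and to 31909 and 14009 RPM in exosomes, and 5 of 8 were lower, among them miR-375-3p (log2 fold change -1.43, from 9113 and 9881 RPM in cells against 10686 and 7068 RPM in exosomes). With library size alone 1 of the 8 was lower. The 2 endothelial markers, both strands of miR-126a, summed to 49.1 and 63.6 RPM in cells and to 9274 and 9201 RPM in exosomes, and 2 of 2 were higher. All 4 mesenchymal markers were higher, with sums of 14.3 and 10.1 RPM in cells against 1770 and 1751 RPM in exosomes. Of the 5 blood markers 4 were tested and higher, with sums of 1.71 and 1.56 RPM against 2445 and 1178 RPM. Their defining member miR-451a had no count in the cells, nor did miR-144-3p, the marker that was not tested, and miR-142a-3p. In exosome replicates 1 and 2, miR-451a had 33 and 2 counts and miR-142a-3p had 14 and 1. Replicate 2 was thus under the limit of 3 for both. The liver marker miR-122-5p was also higher, from 4.44 and 8.19 to 1665 and 1974 RPM. The filter on low counts asks for a CPM level, which an exosome library reaches with far fewer counts than a cell library. The 4 tested blood markers, miR-122-5p, miR-145a-5p, miR-199a-3p and miR-214-3p passed it only because of the exosome libraries and could not be called lower. The share over all tested miRNAs is thus no measure for their calls. A minimum of 10 counts in each of the 4 libraries left no blood marker and, of the mesenchymal markers, only miR-143-3p. That marker, both strands of miR-126a and miR-122-5p were higher there, where 37 of 100 tested miRNAs were higher and 40 lower. The markers that it removed could not be called there in either direction. The part of the sources of all these markers in the values of miR-221-3p and miR-222-3p was not tested. In bulk libraries a smaller share of a source and less RNA from it cannot be told apart.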

How the data were processed

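The authors trimmed adapters, discarded rRNA reads and aligned the rest to the genome and to the RNAs of RNAcentral v10.0 and miRBase v21. They deposited whole read counts per mature miRNA and per hairpin, and RPM values, which equal each count over the sum of its library to within 5e-07. The submitters' processing notes name mm10, cutadapt, Bowtie, STAR, RSEM, Bowtie2 and edgeR. The hairpin table has 8 further columns of values split by arm, which were left aside since 1 field may join several numbers. Groups and replicate numbers were taken from the sample titles. Library quality was checked on different instruments for cells and exosomes per the methods, and this cannot be told apart from the group. For qRT-PCR the study used different isolation kits for cells and exosomes. Its methods do not say whether the sequenced RNA was isolated in that way. Every row of the mature table names a miRNA.

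miRNAs were filtered with filterByExpr (minimum count 10), which kept 438 of 1101 with a count. This function turns the minimum into a CPM level by the median library size, so an exosome library reaches it with far fewer counts than a cell library. The 23.7% called higher therefore include miRNAs that passed only through the exosomes. The 438 were tested with the quasi-likelihood test of edgeR 4.0.16 (R 4.3.3), adjusted over all tested at 0.05. Each standard error is the absolute log2 fold change divided by the root of F, and 95% intervals use the degrees of freedom of that test. Log values used a prior count of 2. A group whose libraries all had 3 or fewer counts was set to the mean level of 3 counts in its libraries, giving a bound. The mean of the other group entered this bound without its counting error. Shares carry 95% Wilson intervals (scipy 1.17.1). The fits were also run on simulated data, with planted changes larger than those of the members and the same spread for all miRNAs in both groups. The exosome libraries differed more than the cell libraries here, so that run does not bear on the members. Mature and hairpin sequences were read from the deposited files and compared with RefSeq GRCm38.p6, which also gave the coordinates of the hairpins and the X chromosome list. Of the 1915 names, 1623 matched. Other genes and transcripts come from GENCODE vM21. Coordinates are given on GRCm38, the build that the notes call mm10.

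The text names the members, miRNAs that share a seed with them, the 5 nearest profiles of each 3p strand, of each list the 2 most abundant in cells and the 2 largest calls in each direction, and markers. The members and lists were chosen with earlier results of these data known. The alternatives were RLE, library size alone, upper quartile scaling, no filter, a minimum of 10 counts in all 4 libraries, DESeq2 1.42.0, exactTest, a block for the replicate number, a fit without the top 5 miRNAs of either group, the omission of single libraries, and shares of summed counts. The test of differences within families was chosen after seeing the data.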

Additional observations from a re-analysis of the deposited data

How the results depend on the processing

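The difference of the 3p strands, which was not tested with DESeq2 or the exactTest, was positive and did not pass in the 10 alternative fits of edgeR in which it was tested. miR-221-3p was above 0 in each of the 12 other settings that tested it. Replicate libraries left out in turn gave log2 fold changes of 0.11 to 2.13 for miR-221-3p and of -1.09 to -0.66 for miR-222-3p, and 1.20 to 2.79 for their difference, and those without exosome replicate 1 rest on 2 exosome counts a strand, under the limit of 3. miR-221-3p passed with library size alone (2.94), with upper quartile scaling (2.23), with the exactTest (1.58) and without exosome replicate 2. miR-222-3p turned positive with library size alone (0.53) and passed as lower with no filter (-2.12), where the median of all was -1.67. A minimum of 10 counts in all 4 libraries removed all members, because none had 10 counts in each.

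Over all tested miRNAs the lower calls became 30 with library size alone, 202 with no filter and 40 with at least 10 counts in every library, where the higher calls became 37. Without either cell library edgeR's quasi-likelihood test called 0, with 159 and 143 miRNAs at an unadjusted p under 0.05, and leaving out each library gave 0 to 124 higher and 0 to 168 lower. The lower calls of the Cdk inhibitor list became 1 with library size alone and 5 with no filter. Its only higher call, miR-17-5p, was removed before any test by the minimum of 10 counts in every library. Calls of the X chromosome list became 4 lower with library size alone, 11 higher with upper quartile scaling, and 1 higher and 1 lower with at least 10 counts. The beta cell markers became 1 lower with library size alone, 8 with no filter and 3 with at least 10 counts. That minimum removed every blood marker before any test and left 1 mesenchymal marker, which was higher. Libraries left out in turn gave 0 to 1 higher and 0 to 6 lower on the Cdk inhibitor list, 0 to 14 and 0 to 15 on the X chromosome list, 0 to 7 lower beta cell markers, and 0 to 2 endothelial, 0 to 4 mesenchymal, 0 to 4 blood and 0 to 1 liver markers higher.

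With libraries left out in turn, the 3p share of exosomes minus that of cells was 1.22 to 4.41 percentage points for miR-221. For miR-222 it was 0.524 to 2.65. All exosome reads of the arms were 3p, so these ranges come only from the few 5p counts in cells and measure no rise. The rise in the miR-221-3p share of the pair ranged from 19.7 to 44.7 percentage points. That of the summed share ranged from 0.00381 to 0.0332, and was 0.0394 without the 5 most abundant miRNAs of each group. With the replicate block, miR-221-3p was at 1.43 and miR-222-3p at -0.84, with 117 higher and 109 lower calls over all. The deviations of same-numbered libraries correlated at 0.19 over tested miRNAs, and nothing in the labels says that a number marks a shared culture. Other causes of these shifts were not tested. Depth limits the exosome values, with 2 to 15 counts on the 3p strands.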
